A study of Mus musculus with 4 samples.

Results

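The proteasome subunit genes were taken as every gene name on the array that begins with Psma, Psmb, Psmc, Psmd or Psme followed by a digit, without the immunoproteasome genes Psmb8, Psmb9 and Psmb10 and without pseudogenes. The rule found 41 of 31660 gene names, read by 52 probes on 61 spots of each array. They are 16 genes of the catalytic core, 9 of the base and 3 of chaperones that assemble the base, 8 of the lid, 4 of activators, and Psmc3ip. Psmc3ip entered by its name alone: it encodes a partner of the recombinases of meiosis and DNA repair, not a subunit, and is given apart from the others.

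The arrays measured RNA of sorted preproB cells, a stage near the start of the B lineage, from the bone marrow of C57BL/6 mice. The sort kept lineage-negative cells with B220 and CD43 and without BP1 and CD24. All mice carried loxP sites around the enhancer 37 kb from Cebpa, the gene of a myeloid transcription factor, and all were given 3 doses of pIpC, a synthetic RNA that induces interferon, 5 weeks before the cells were taken. The 2 control samples were Enh(f/f). The 2 EnhDel samples were Enh(f/f) with Mx1-Cre, a recombinase under an interferon-inducible promoter that is active in many cell types besides the one sorted. By the labels, control replicate 1 came from a female aged 26 weeks, and the remaining 3 arrays from males aged 24 weeks. The Y-linked gene Ddx3y went against the female label: its log2 signal was 1.70 on both control arrays, and 2.00 and 0.67 on EnhDel replicates 1 and 2.

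The proteasome is the protease of the cytoplasm and nucleus that degrades proteins tagged with ubiquitin. Its core is a barrel of stacked rings: alpha subunits form the outer rings and the gate, and beta subunits form the inner rings, which hold the proteolytic sites. A cap, made of a base with an ATPase ring and a lid, binds ubiquitin chains, removes them and unfolds the substrate. Other activators dock on the same ends of the core. In lymphoid and myeloid cells, and under interferon, the catalytic subunits Psmb5, Psmb6 and Psmb7 are partly replaced by those of the immunoproteasome.

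Levels are given as log2 of the background-corrected signal minus the 75th percentile of the same array, so that 0 is the brightness below which 75% of probes lie. They compare a gene between arrays, not one gene with another, since probes differ in brightness for the same amount of RNA. Between 59.6% and 64.9% of 39429 probes per array were called well above background, with 0 saturated spots. The arrays shared 1 slide and 1 scan. The EnhDel arrays were further apart than the control arrays. Over 19394 tested genes the log2 differences between the EnhDel arrays had an SD of 0.611, against 0.333 between the control arrays. The sorted population also expressed genes of plasmacytoid dendritic cells on all arrays (Siglech at log2 7.47, 7.37, 7.50 and 7.44 in control replicates 1 and 2 and EnhDel replicates 1 and 2). Of 7 B-lineage markers 6 were tested, all with a difference below 0 and a median of -1.68, and Pax5 was well above background on 1 array. Markers of other cells differed too. The median difference was -2.32 for 5 monocyte genes (5 below 0) and -1.10 for 7 neutrophil genes (6 below 0). It was 0.87 for 5 T and NK cell genes (4 above 0). The neutrophil median is the value of S100a8. S100a8 and the NK gene Klrb1c were each well above background on 3 arrays. Their signals were below the floor on EnhDel replicate 1 (S100a8 10.1) and EnhDel replicate 2 (Klrb1c 8.86). Both passed the filter through the controls alone, which favours a difference below 0. Of 4 erythroid genes, Hba-a1 and Hbb-bt differed by 1.43 and 2.63. Klf1 and Epor were well above background on 2 arrays only and passed the filter through EnhDel alone, which fixed their direction. Their control signals were near the floor (Klf1 3.31 and 4.35, Epor 13.6 and 11.5). None of these markers passed the adjusted threshold in limma, and their part in the proteasome values was not tested. Of the genes behind the sort, Enpep (BP1) was well above background on 0 arrays, but Cd24a (CD24) was on all 4. Cebpa stood at 0.41 and -0.21 in the controls and at -2.85 and -1.77 in EnhDel (difference -2.41 ± 0.44 SE, limma adjusted p = 0.238).

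Transcript levels of the proteasome differed little between control and EnhDel cells. Of the 40 subunit and chaperone genes, 38 were well above background in at least 1 group, on both of its arrays, and were tested, and 36 of these were above the 75th percentile level. None of the 38 passed the adjusted threshold of 0.05 in limma, where 0% of the 19394 genes did. The lowest adjusted p among the 38 was 0.565 in limma, for the core gene Psma7. The differences, EnhDel minus control, ran from -0.35 to 0.20 on the log2 scale.

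With the scaling and background correction used for these values, the 95% interval of every one of the 38 differences lay within 2-fold in either direction. The bounds reached 0.55 and 1.64 as ratios of EnhDel to control. This did not hold under every alternative. Psma7, for example, was -0.646 ± 0.191 (SE) with normexp background correction and -0.557 ± 0.252 (SE) with median scaling, and its interval reached past 2-fold in both. Psma6 was -0.517 ± 0.206 (SE) and -0.466 ± 0.225 (SE) in the same order. The genes whose interval reached past 2-fold were not counted under the alternatives. A difference of more than 0.5 log2 was seen in 0 of 38, compared with 20.5% of all tested genes. The count was 2 with normexp background correction (Psma7 and Psma6), 1 with median scaling and 1 without EnhDel replicate 1 (Psma7 each time). Among the 8435 tested genes above the 75th percentile level, which match the proteasome genes better in brightness, that share was 7.30%. The median size of the difference, regardless of direction, was 0.10 for the proteasome genes, 0.21 for all genes and 0.13 for the brighter ones.

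**Figure D1:**
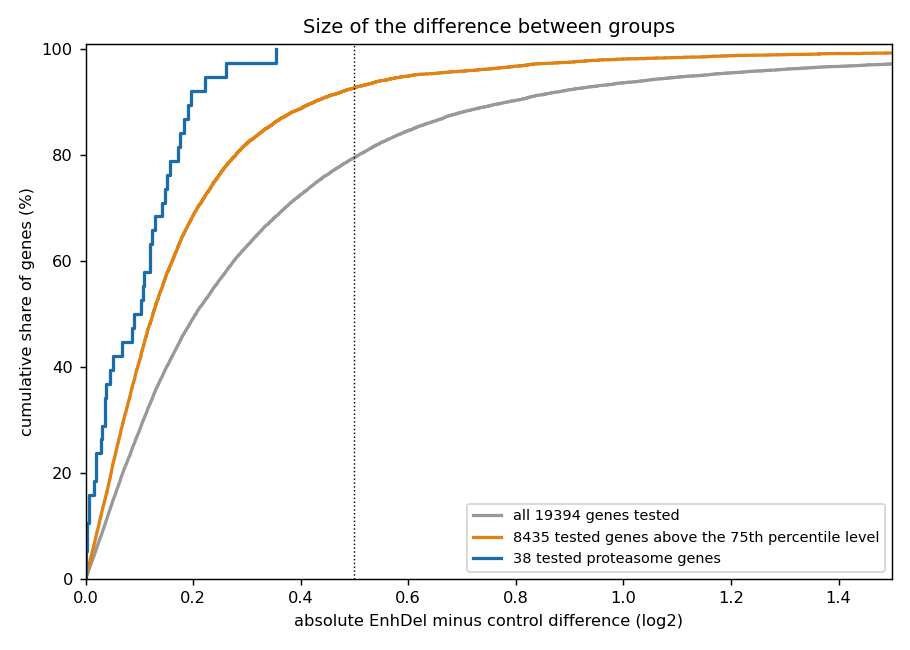
Cumulative share of genes (y axis, percent) against the absolute difference in log2 signal between EnhDel and control (x axis). The stepped line stands for the 38 tested proteasome genes and reaches 100% before 0.5 log2 (dotted line); the smooth lines stand for all 19394 tested genes and for the 8435 above the 75th percentile level, of which 20.5% and 7.30% lie to the right of the dotted line.

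By direction, 27 of the 38 genes had a difference below 0, compared with 40.2% of all tested genes and 53.0% of the brighter genes. The direction depends on the scaling: with arrays scaled to their medians, which lowered every difference by the same amount and moved the median of all genes from 0.07 to -0.14, all 38 lay below 0. Both EnhDel arrays lay above both control arrays for 3 genes (28.6% of all genes, 19.7% of the brighter ones). They lay below both controls for 8 genes, 21.1% of the 38, near the share of 15.5% for all genes and 16.9% for the brighter ones. For the other 27 the groups overlapped. At an unadjusted limma p under 0.05, 0 of the 38 were higher (7.23% of all genes) and 0 were lower (3.96% of all genes).

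The control arrays agreed closely on these genes, and the EnhDel arrays did not. The median gap between the control arrays was 0.04 log2 in size for the 38 genes and 0.13 for all genes. Between the EnhDel arrays it was 0.22, and 0.33 for all genes. EnhDel replicate 2 was the lowest of the 4 arrays for 26 of the 38 genes, compared with 34.8% of all genes and 51.2% of the brighter genes. It lay below EnhDel replicate 1 for 30 of them, compared with 51.3% of all genes and 67.9% of the brighter genes. Without control replicate 1, whose label is in doubt, 24 of the 38 differences were below 0 and 0 passed the threshold in limma. Without EnhDel replicate 2, 16 of the 38 differences were below 0 and 22 above.

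**Figure D2:**
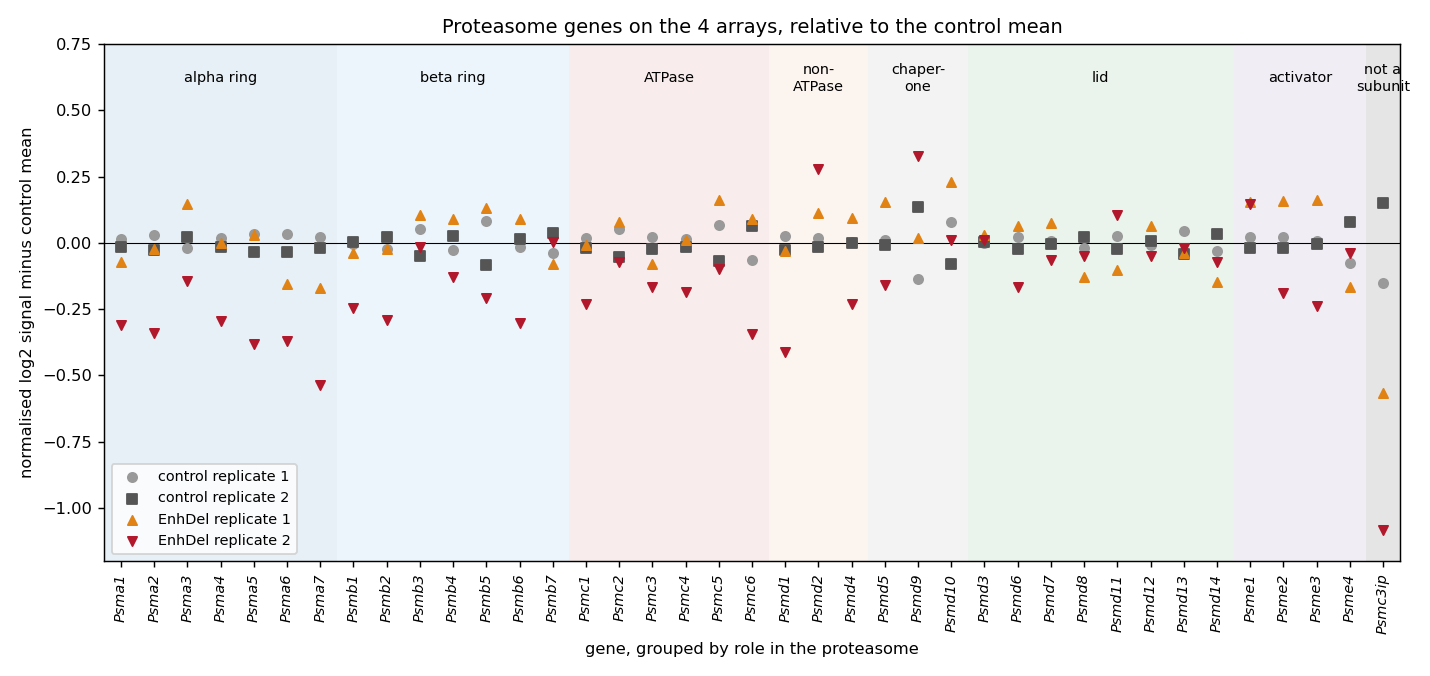
Normalised log2 signal of each tested gene on each of the 4 arrays, minus the mean of the control arrays (y axis), with genes grouped by role (x axis). Control symbols crowd around 0; EnhDel replicate 2 (downward triangles) is the lowest point for 26 of the 38 subunit and chaperone genes, and Psmc3ip at the right is the only gene more than 0.5 log2 from the controls on both EnhDel arrays.

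Genes of the cell cycle were also lowest on that array by their median. Of 10 such genes (Mki67, Top2a, Ccnb1 and others), 0 passed the adjusted threshold in limma. At an unadjusted limma p under 0.05, 3 were lower, compared with 3.96% of all genes. A difference below 0 was seen for 9, compared with 40.2% of all genes. Both EnhDel arrays lay below the controls, with a median of -0.58 in EnhDel replicate 1 and -1.75 in EnhDel replicate 2, each against the control mean. Their summed signal was 46180 and 62340 in the controls, and 35920 and 17150 in EnhDel replicates 1 and 2; all 10 were above background on all 4 arrays. Their part in the proteasome values was not tested. In RNA of a sorted population, fewer cells of a kind and less RNA per cell cannot be told apart.

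Promoter sequences were read from RefSeq (GRCm38.p6) for the 250 bases before the start of transcription. Of 40 subunit and chaperone genes, 33 were matched by symbol, with 36 promoter entries. Searches on both strands covered 4 motifs known from proteasome or housekeeping promoters: TGACNNNGC, within the element to which NRF1 and NRF2 bind, CCGGAAG, a core of the ETS family, CCAAT, bound by NF-Y, and GGGCGG, bound by SP1. A match is a description of letters, not a binding site.

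CCGGAAG was in 33.3% of the 36 entries and in 6.91% of all 32851 promoters of the same length. It was in 66.7% of 9 base entries and 50% of 6 lid entries, but in 7.69% of 13 core entries. GGGCGG was in 58.3% of the 36 and 32.7% of all promoters. TGACNNNGC was in 13.9% against 10.2%, and CCAAT in 36.1% against 33.8%.

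The promoters of 4 genes show the first 2 motifs in place. The capitals mark TGACNNNGC in the catalytic core genes Psmb5 (chr14:54617996-54618245, minus strand) and Psmb6 (chr11:70525107-70525356, plus strand), and CCGGAAG, as its reverse complement, in the base genes Psmc1 (chr12:100109952-100110201, plus strand) and Psmd2 (chr16:20651402-20651651, plus strand). They were chosen after the motif counts were seen. Each is written 5′ to 3′ toward the start of transcription.
Psmb5 promoter: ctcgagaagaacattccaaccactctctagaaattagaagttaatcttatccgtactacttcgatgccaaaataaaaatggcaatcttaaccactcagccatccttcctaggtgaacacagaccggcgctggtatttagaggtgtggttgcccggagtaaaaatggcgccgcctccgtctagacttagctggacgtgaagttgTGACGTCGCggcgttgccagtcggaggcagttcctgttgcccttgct
Psmb6 promoter: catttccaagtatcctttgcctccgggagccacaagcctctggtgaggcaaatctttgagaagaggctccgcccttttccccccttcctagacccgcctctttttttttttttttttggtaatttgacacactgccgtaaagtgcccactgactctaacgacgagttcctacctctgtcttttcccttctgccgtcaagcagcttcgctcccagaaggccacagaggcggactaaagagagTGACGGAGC
Psmc1 promoter: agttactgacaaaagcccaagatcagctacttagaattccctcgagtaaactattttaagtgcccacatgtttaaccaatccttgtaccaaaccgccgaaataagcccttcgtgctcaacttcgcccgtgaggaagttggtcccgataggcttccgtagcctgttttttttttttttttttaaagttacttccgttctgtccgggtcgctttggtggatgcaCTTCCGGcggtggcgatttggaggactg
Psmd2 promoter: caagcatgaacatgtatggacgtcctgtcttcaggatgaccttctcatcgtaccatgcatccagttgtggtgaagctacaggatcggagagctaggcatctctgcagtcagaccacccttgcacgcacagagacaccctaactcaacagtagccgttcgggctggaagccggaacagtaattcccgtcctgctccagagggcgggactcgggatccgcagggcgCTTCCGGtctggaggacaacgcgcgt
TGACNNNGC begins 47 bases before the start in Psmb5 and 9 bases before it in Psmb6.

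The alpha ring held the lowest differences of the 38 genes, those of Psma7 and Psma6. Its 7 tested genes, Psma1 to Psma7, ranged from -0.35 to 0.00065, with a median of -0.18, against 0.07 over all genes and -0.01 over the brighter genes; 6 of 7 were below 0. EnhDel replicate 2 was the lowest array for 7 of 7, at a median of -0.34 from the control mean, while EnhDel replicate 1 lay at -0.02. The groups did not overlap for 3 of them, Psma1, Psma6 and Psma7, all lower in EnhDel. The same was seen for 15.5% of all genes and 16.9% of the brighter ones.

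Psma7, an alpha-ring subunit, had a log2 level of 5.08 and 5.04 in the controls and of 4.89 and 4.52 in EnhDel replicates 1 and 2. Both EnhDel arrays were below both controls, and most of the distance came from replicate 2. The difference was -0.35 ± 0.19 (SE, n = 2 per group), a ratio of 0.783 with a 95% interval of 0.550 to 1.11, and did not pass the threshold in limma (adjusted p = 0.565). Without EnhDel replicate 1 it was -0.53, and without EnhDel replicate 2 it was -0.17.

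Psma6, another alpha-ring subunit, stood at 3.00 and 2.93 in the controls and at 2.82 and 2.60 in EnhDel (difference -0.26 ± 0.16 SE, limma adjusted p = 0.617). Psma1 stood at 3.87 and 3.84 in the controls and at 3.79 and 3.55 in EnhDel (difference -0.19 ± 0.17 SE, limma adjusted p = 0.717). Each repeats the order seen for Psma7, with EnhDel replicate 2 lowest and no overlap between groups, and neither difference passed the threshold. Psma8, a testis form of an alpha subunit, was well above background on 0 arrays, with signals of 11.6 and 7.20 in the controls and 7.76 and 7.19 in EnhDel; the lowest signals called well above background were 12.2 to 14.4.

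The beta ring lay closer to the controls. Its 7 tested genes, Psmb1 to Psmb7, ranged from -0.16 to 0.05 with a median of -0.04, and 6 of 7 were below 0. On EnhDel replicate 1 their median lay 0.09 above the control mean; on EnhDel replicate 2 it lay at -0.21, and this was the lowest array for 5 of 7. Psmb11, the beta subunit of the thymic cortex, was well above background on 0 arrays (signals of 3.42 and 4.60 in the controls, 2.92 and 3.26 in EnhDel).

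The 3 catalytic subunits showed no difference beyond the spread of the arrays. Psmb5, which carries the chymotrypsin-like activity that bortezomib blocks, stood at 5.53 and 5.37 in the controls and at 5.58 and 5.24 in EnhDel. The groups overlapped, and the difference was -0.04 ± 0.19 (SE; limma adjusted p = 0.954), an interval of 0.681 to 1.39 as a ratio. A second probe for Psmb5 gave 0.01. That probe lies at chr14:55233161-55233220 (mm9, minus strand, within the transcript of Psmb5) and shows the stretch whose RNA was read:
Psmb5 second probe: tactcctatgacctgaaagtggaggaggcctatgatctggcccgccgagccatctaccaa

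Psmb6, the caspase-like subunit, stood at 5.29 and 5.32 in the controls and at 5.39 and 5.00 in EnhDel. The EnhDel arrays lay on either side of the controls, and the difference was -0.11 ± 0.20 (SE; limma adjusted p = 0.867). Psmb7, the trypsin-like subunit, stood at 2.00 and 2.07 in the controls and at 1.96 and 2.04 in EnhDel, with a difference of -0.04 ± 0.15 (SE; limma adjusted p = 0.942). Here the groups overlapped and EnhDel replicate 2 was not the lowest. The 60 bases of the Psmb7 probe are spread over 20420 bases of chr2:38468966-38489385 (mm9, minus strand), so the probe crosses at least 1 intron and reads spliced RNA:
Psmb7 probe: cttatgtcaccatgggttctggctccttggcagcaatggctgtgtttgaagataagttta

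Of the structural beta subunits, Psmb1 stood at 3.65 and 3.66 in the controls and at 3.61 and 3.41 in EnhDel, lower without overlap (difference -0.14 ± 0.16 SE, limma adjusted p = 0.783). Psmb3 had the highest difference of the core, 0.05 ± 0.15 (SE; limma adjusted p = 0.928), from 4.63 and 4.53 in the controls and 4.68 and 4.56 in EnhDel. It overlapped the controls, and its sign turned with median scaling and with normexp, but not with normexp after the background repair (0.03). Over all 14 core genes the median difference was -0.14. It stayed below 0 under each of the 16 alternatives run, from -0.41 to -0.01, and was nearest to 0 without EnhDel replicate 2.

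The base is the part of the cap that touches the core. Its 6 ATPases, Psmc1 to Psmc6, which unfold the substrate and open the gate, ranged from -0.13 to 0.03 with a median of -0.10. EnhDel replicate 2 was the lowest array for 6 of 6, at a median of -0.18 from the control mean, and EnhDel replicate 1 lay at 0.04. Psmc3 alone among them did not overlap: it stood at 5.37 and 5.33 in the controls and at 5.27 and 5.18 in EnhDel, with a difference of -0.12 ± 0.15 (SE; limma adjusted p = 0.795). Its second probe gave -0.05.

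The scaffold subunits of the base, Psmd1 and Psmd2, lay at opposite ends. Psmd1 stood at 3.58 and 3.53 in the controls and at 3.52 and 3.14 in EnhDel. It was lower without overlap, by a narrow margin on EnhDel replicate 1 and a wide one on EnhDel replicate 2, and the difference was -0.22 ± 0.19 (SE; limma adjusted p = 0.721). Without EnhDel replicate 2 it was -0.03.

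Psmd2 stood at 2.70 and 2.67 in the controls and at 2.80 and 2.96 in EnhDel. Both EnhDel arrays were above both controls, with EnhDel replicate 2 the highest, and the difference of 0.20 ± 0.15 (SE; limma adjusted p = 0.691) was the highest of the 38. Its sign turned with median scaling (-0.01) and with normexp background correction (-0.07), but not with normexp after the background repair (0.18). Psmd4, a ubiquitin receptor, overlapped between groups. The median over the 9 base genes was -0.09, and 0.08 without EnhDel replicate 2.

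The chaperones that assemble the base, Psmd5, Psmd9 and Psmd10, had a median difference of 0.12, and by the brightest probe the groups overlapped for all 3. That median is the value of Psmd10, whose second probe gave -0.05. The second probe of Psmd9 gave 0.28, with both EnhDel arrays above both controls. Psmd9 stood at -0.76 and -0.49 in the controls and at -0.61 and -0.30 in EnhDel (difference 0.17 ± 0.20 SE, limma adjusted p = 0.788; -0.03 with median scaling). Psmd5 stood at 0.72 and 0.70 in the controls and at 0.86 and 0.55 in EnhDel (difference -0.0032 ± 0.18 SE, limma adjusted p = 0.995). The EnhDel arrays lay on either side of the controls for Psmd5 and alternated with them for Psmd9.

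The lid, which removes ubiquitin chains, had the smallest differences of the roles, with a median size of 0.02 log2. Its 8 genes ranged from -0.11 to 0.02 with a median of -0.01, 5 were below 0, and EnhDel replicate 2 was the lowest array for 3 of 8. Its medians against the control mean were -0.01 and -0.05 on EnhDel replicates 1 and 2, closer together than those of the core. Psmd14, the deubiquitinase of the lid, stood at 0.61 and 0.68 in the controls and at 0.50 and 0.57 in EnhDel (difference -0.11 ± 0.15 SE, limma adjusted p = 0.821).

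Psmd8, a lid scaffold subunit, stood at 2.48 and 2.52 in the controls and at 2.37 and 2.45 in EnhDel (difference -0.09 ± 0.15 SE, limma adjusted p = 0.851). For both Psmd14 and Psmd8 the EnhDel arrays were below the controls without overlap, and EnhDel replicate 1 was the lower of the EnhDel arrays. Psmd3 stood at 4.20 and 4.21 in the controls and at 4.23 and 4.22 in EnhDel. It was higher without overlap but by only 0.02 ± 0.14 (SE, limma adjusted p = 0.968). With median scaling it was -0.18, with normexp -0.25 and with normexp after the background repair 0.03.

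**Figure D3:**
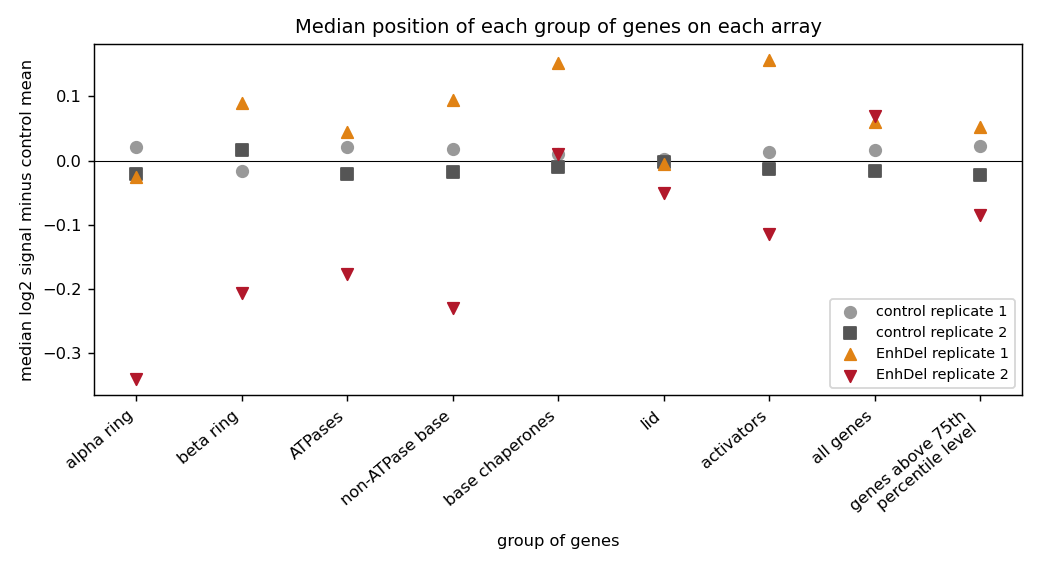
Median over the genes of each role of the log2 signal minus the control mean (y axis), for each of the 4 arrays, beside all tested genes and those above the 75th percentile level (x axis). EnhDel replicate 2 lies at -0.34 for the alpha ring, -0.21 for the beta ring, -0.18 for the ATPases and -0.05 for the lid, at 0.07 for all genes and at -0.09 for those above the 75th percentile level.

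The activators are alternatives to the cap. Psme1 and Psme2 form the interferon-inducible ring PA28, Psme3 forms its nuclear relative and Psme4 encodes PA200, which acts in sperm and on chromatin. Psme1 is read by 1 probe printed on 10 spots, which gives the spread of the measurement within an array: the SD over spots was 0.02 to 0.05 log2. Its level was 5.13 and 5.09 in the controls and 5.27 and 5.26 in EnhDel. Both EnhDel arrays were above both controls and close to each other, yet the difference of 0.15 ± 0.14 (SE, limma adjusted p = 0.742) did not pass the threshold. It was -0.05 with median scaling, -0.16 with normexp and 0.13 with normexp after the background repair.

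Psme2 depended on the probe. The brightest of its 3 probes, the one used by the rule, stood at 6.71 and 6.66 in the controls and at 6.84 and 6.49 in EnhDel (difference -0.02 ± 0.19 SE, limma adjusted p = 0.980). The middle probe gave 0.11 ± 0.15 (SE). The dimmest stood at 0.56 and 0.50 in the controls and at 0.96 and 1.25 in EnhDel, a difference of 0.57 ± 0.18 (SE) with an adjusted p over all tested probes of 0.387 in limma.

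The dimmest Psme2 probe was the only one of the 3 with both EnhDel arrays far above the controls, and EnhDel replicate 2 was its highest array but the lowest for the brightest probe. The array design gives the dimmest probe another transcript accession than the brighter ones, and genome positions from 56209736 to 56429032 on chromosome 14 (mm9), a span that runs beyond the other Psme2 probes at 56206296 to 56209346. Which RNA it reads was not tested.

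**Figure D4:**
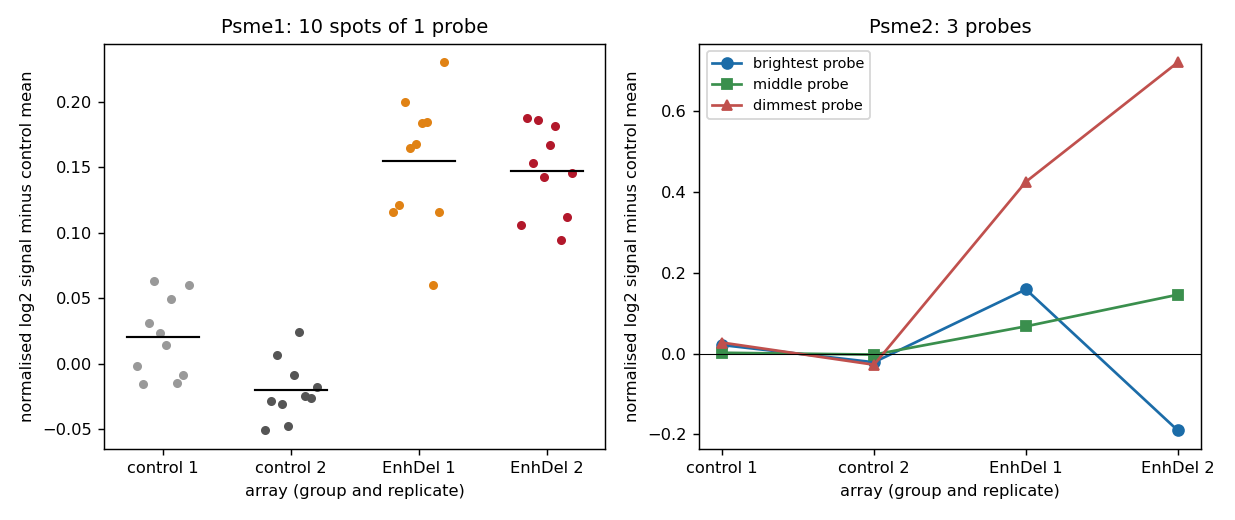
Left, the 10 spots of the Psme1 probe on each of the 4 arrays, as log2 signal minus the control mean (y axis), with a bar at the mean of the spots; the spots of both EnhDel arrays lie mostly above those of the controls. Right, the 3 probes of Psme2 on the same scale: the dimmest reaches a difference of 0.57, the middle one 0.11 and the brightest -0.02.

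Psme3 stood at 1.98 and 1.97 in the controls and at 2.13 and 1.73 in EnhDel (difference -0.04 ± 0.20 SE, limma adjusted p = 0.956). Psme4 stood at -1.31 and -1.16 in the controls and at -1.40 and -1.27 in EnhDel (difference -0.10 ± 0.16 SE, limma adjusted p = 0.840). Both overlapped between groups. The median over the 4 activators was -0.03, and 0.16 without EnhDel replicate 2.

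Psmc3ip, which is not a subunit of the proteasome, differed most of the 41 names. It stood at -1.15 and -0.85 in the controls and at -1.56 and -2.08 in EnhDel, below both controls on both EnhDel arrays. The difference was -0.82 ± 0.25 (SE), a ratio of 0.565 with an interval of 0.356 to 0.896; at an unadjusted p of 0.0256 and an adjusted p of 0.382 in limma it did not pass the threshold. It passed without EnhDel replicate 1 (-1.08, adjusted p = 0.0449), where the lone EnhDel array is assumed to vary like the controls and 2938 genes passed. Its probe lies at chr11:100954219-100954278 (mm9, minus strand, within the Psmc3ip transcript):
Psmc3ip probe: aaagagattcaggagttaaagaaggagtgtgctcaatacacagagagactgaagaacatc

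Other genes of the pathway also differed little between groups. Of 28 genes for assembly factors, associated proteins, shuttles, regulators, ubiquitin and unfoldases, all 28 were tested and 0 passed the adjusted threshold in limma. At an unadjusted p under 0.05, 0 were higher and 0 lower, 14 differences were above 0 and 14 below, and their median was -0.02. The lowest was Psmg2, an assembly chaperone of the alpha ring, at 1.63 and 1.82 in the controls and 1.64 and 1.23 in EnhDel (difference -0.29 ± 0.21 SE, limma adjusted p = 0.673).

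The highest was Nfe2l1, the transcription factor that raises proteasome genes when the proteasome is inhibited. It stood at -3.03 and -3.07 in the controls and at -2.53 and -2.73 in EnhDel, above the controls without overlap (difference 0.42 ± 0.16 SE, limma adjusted p = 0.458). Its relative Nfe2l2, the regulator of the oxidative stress response, stood at 2.39 and 2.23 in the controls and at 2.86 and 2.24 in EnhDel (difference 0.24 ± 0.26 SE, limma adjusted p = 0.772); EnhDel replicate 1 alone was high.

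The immunoproteasome genes, which the rule leaves out, were well above background on all arrays and none passed the threshold in limma. Their differences were 0.21 for Psmb8, 0.21 for Psmb9 and 0.10 for Psmb10. Both EnhDel arrays lay above both controls for Psmb8 and Psmb10, as for 28.6% of all genes and 19.7% of the brighter ones. The shift of median scaling puts Psmb10 below 0. Against the control mean the median of the 3 immunoproteasome genes reached 0.12 on EnhDel replicate 1, and 0.31 on EnhDel replicate 2. There they were thus above the controls where the 7 standard beta genes had a median of -0.21; the difference between these sets was not tested.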

How the data were processed

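RNA of 4 sorted preproB samples, 2 per group, was read on 1-colour Agilent arrays. The scanner files that the authors deposited hold spot intensity values, per the file headers from Feature Extraction 10.7.3.1, background-corrected, with probe positions on mm9. The authors also deposited a log2 table, whose normalization is not given in the sources used here; it served as an alternative.

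Spots marked as non-uniform or outliers were left out, log2 signals were averaged per probe, and each array's 75th percentile over probes was subtracted. Probes were named by accession through RefSeq GRCm38.p6 (26581 of 39429 matched). Each gene took its brightest probe among those well above background, on both arrays, in at least 1 group. Groups were compared over 19394 genes with limma 3.58.1 in R 4.3.3 (lmFit, eBayes, Benjamini-Hochberg, threshold 0.05), and the fit was tested on simulated data. With 2 arrays a group, an exact permutation test cannot go below a two-sided p of 0.333.

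The members, lists and alternatives were chosen with earlier results of these data known. Values per array are given for the catalytic subunits, the activators, members below background, the lowest and highest difference of each role and members at an unadjusted p under 0.05. Members whose groups did not overlap were added after the values were seen. Background correction, scaling, filters, probe choice, a replicate block, the variance model and each array left out were varied.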

Additional observations from a re-analysis of the deposited data

How the results depend on the processing

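No subunit or chaperone gene passed the adjusted threshold under any of the 16 alternatives, with the lowest limma adjusted p, 0.0682, for Psma7 without EnhDel replicate 1. Over all 39 tested members, 69 of 624 recomputed differences turned sign (11.1%). For the 21 genes with values given above, chosen partly for extreme or non-overlapping differences, it was 30 of 336 (8.93%), and 1 passed the threshold, that of Psmc3ip without EnhDel replicate 1. The number of the 38 genes past 0.5 log2, 0 above, was 2 with normexp (Psma7 -0.646, Psma6 -0.517), 1 with median scaling (Psma7 -0.557), 1 without EnhDel replicate 1 (Psma7 -0.535) and 1 with Psme2 by its dimmest probe. It was 0 with normexp after the background repair.

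Normexp background correction moved the medians to -0.303 for all 38 genes, -0.411 for the core, -0.338 for the base, -0.258 for the lid and -0.208 for the activators, with the median of all genes at 0.188. Normexp after the background repair, a rule applied to all 4 arrays, returned them near the values above (lid -0.0302). Median scaling gave -0.248 for all 38, -0.349 for the core, -0.291 for the base, -0.218 for the lid and -0.230 for the activators, with 23 of all tested genes passing. In the authors' deposited table the lid lay at 0 and the activators at 0.1, and the mean of a gene's probes let 2 of all tested genes pass.

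With 1 array left out, between 1 (control replicate 1) and 2938 (EnhDel replicate 1) of all tested genes passed, and 0 to 1 of the members. The medians ran from -0.163 to 0.029 for the 38 genes, -0.293 to -0.011 for the core, -0.185 to 0.079 for the base, -0.0498 to 0.0053 for the lid and -0.115 to 0.157 for the activators. The array left alone in its group is assumed to vary like the others. The cause of these shifts was not tested.

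Signs turned as follows. With normexp, Psmb3 was -0.25, Psmd2 -0.065, Psmd3 -0.25, Psme1 -0.16 and Psme4 0.16. After the background repair, normexp gave 0.029, 0.18, 0.027, 0.13 and -0.092 for these genes in the same order, each with the sign of the main values. With median scaling, Psmb3 was -0.16, Psmd2 -0.0081, Psmd3 -0.18, Psmd9 -0.031 and Psme1 -0.053. Psmb5 was 0.023 with cyclic loess, and with quantile normalization Psmb5 was 0.015, Psmd5 0.0051 and Psme2 0.047. Psme2 was 0.062 with cyclic loess, 0.22 with the mean of its probes, 0.30 in the authors' deposited table and 0.57 by its dimmest probe, an alternative chosen after seeing the data. Leaving out 1 array moved Psmb3 to between -0.015 and 0.106, Psmb5 to between -0.207 and 0.132, Psmb6 to between -0.303 and 0.0895, Psmb7 to between -0.0783 and 0.0048, Psmd5 to between -0.16 and 0.15, Psme2 to between -0.19 and 0.16 and Psme3 to between -0.24 and 0.16.

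With the replicate number as a block 0 genes passed, and the lowest adjusted p of the 38 was 0.624 in limma. Whether the numbers pair the samples is not known. Same-numbered deviations correlated at -0.0236 over 19388 genes, which shows no shared deviation but cannot settle the pairing. Arrays limit precision by their number, 2 per group, and Psma8 and Psmb11 have only an upper bound near the background.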
